A study of Mus musculus with 12 samples.

Results

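The DNA replication and S-phase genes are a fixed list of 46 genes that act when a cell copies its genome, and their rows were taken by symbol from a table of 23472 genes. All 46 passed the filter on low counts, as did 13184 genes in all. The RNA came from bone marrow LT-HSCs of C57BL/6 mice, the long-term stem cells from which all blood lineages are renewed. Of the 12 libraries, 6 were wt and cre-negative and 6 were labelled Jak1 KO and cre-positive. Jak1 is a tyrosine kinase that carries signals from interferon and many cytokine receptors into the cell. Every mouse, of either genotype, had been given 4 doses of poly(I:C), an interferon-inducing mimic of viral RNA, to switch on deletion, and cells were taken 4 to 6 weeks later. Carrying cre and having lost Jak1 therefore cannot be told apart in these groups, and which exons were removed is not stated. Replicates 1 to 3 of each genotype carry VD names and replicates 4 to 6 carry ZL names, and the labels do not say whether these were separate collections. Nothing says that the libraries came from separate animals, so p-values measure only how these samples vary, and part of that may be technical.

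A cell copies its DNA once per division. Origins are licensed when the MCM helicase ring is loaded with the help of Cdc6, helicases are then activated, and polymerases, clamps and clamp loaders build the new strands at the fork. E2F factors and cyclin E drive most of these genes into transcription as a cell passes from G1 into S phase. LT-HSCs are known as mostly quiescent cells, so that mRNA of this programme in a bulk sample comes from whichever cells are in or near the cycle. In such bulk samples, fewer cycling cells and less of the mRNA per cell cannot be told apart.

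Many replication genes are known to carry E2F sites next to their start. RefSeq promoter windows of GRCm38.p6, from 250 bases before to 50 bases after the start, were at hand for 35 of the 46 members, some with more than 1 window. The letters TTTCCCGC, TTTCGCGC, TTTGCCGC and TTTGGCGC, read on both strands and allowed to overlap, stood in the windows of 15 of these 35 members (42.9%). The same letters stood in 704 of 27025 genes of the whole promoter table (2.605%). Of the 20 matches in members, 13 began before the start. The letters CCAAT, the core of the NF-Y motif, stood in 22 of the 35 (62.9%), against 41.1% of all genes. Windows with E2F letters are given for 6 members whose values in every library follow, in the order fixed for the named genes (Pola1 also has the letters and came after the sixth); capitals mark the E2F letters, and each run reads 5′ to 3′ on the strand of the gene. They lie at chr8:75109259-75109558 (plus strand, Mcm5), chr11:98907901-98908200 (plus, Cdc6), chr17:56304063-56304362 (plus, Uhrf1), chr2:72475969-72476268 (plus, Cdca7), chr12:102757725-102758024 (plus, Ubr7) and chr1:191575495-191575794 (minus, Dtl).
Mcm5: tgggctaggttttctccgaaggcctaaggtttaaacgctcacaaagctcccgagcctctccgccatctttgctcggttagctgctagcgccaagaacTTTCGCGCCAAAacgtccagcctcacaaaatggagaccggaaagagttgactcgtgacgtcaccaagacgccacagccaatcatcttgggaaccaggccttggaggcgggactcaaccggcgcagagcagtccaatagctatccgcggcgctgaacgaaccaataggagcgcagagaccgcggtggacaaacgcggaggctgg
Cdc6: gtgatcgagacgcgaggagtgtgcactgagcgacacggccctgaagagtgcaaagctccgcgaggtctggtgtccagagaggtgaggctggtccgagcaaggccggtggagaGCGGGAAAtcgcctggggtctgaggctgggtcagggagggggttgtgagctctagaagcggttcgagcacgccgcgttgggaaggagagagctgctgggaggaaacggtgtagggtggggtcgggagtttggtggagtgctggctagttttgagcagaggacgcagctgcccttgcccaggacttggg
Uhrf1: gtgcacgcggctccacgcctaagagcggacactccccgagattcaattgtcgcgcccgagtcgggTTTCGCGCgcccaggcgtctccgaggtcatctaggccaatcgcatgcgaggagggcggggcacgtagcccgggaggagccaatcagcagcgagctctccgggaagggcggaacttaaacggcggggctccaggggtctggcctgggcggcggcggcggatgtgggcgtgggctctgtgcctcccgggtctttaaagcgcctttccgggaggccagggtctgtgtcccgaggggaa
Cdca7: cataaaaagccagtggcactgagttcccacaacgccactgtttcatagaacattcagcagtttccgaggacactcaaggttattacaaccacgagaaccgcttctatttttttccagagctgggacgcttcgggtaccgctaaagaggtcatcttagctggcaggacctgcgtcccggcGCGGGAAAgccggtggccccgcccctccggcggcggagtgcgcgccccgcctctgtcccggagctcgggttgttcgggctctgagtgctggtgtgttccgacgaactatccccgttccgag
Ubr7: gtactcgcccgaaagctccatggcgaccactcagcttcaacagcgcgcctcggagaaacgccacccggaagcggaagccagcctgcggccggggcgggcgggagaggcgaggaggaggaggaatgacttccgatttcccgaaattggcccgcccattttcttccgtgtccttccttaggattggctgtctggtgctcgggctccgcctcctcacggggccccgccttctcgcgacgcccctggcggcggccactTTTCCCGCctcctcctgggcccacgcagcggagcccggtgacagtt
Dtl: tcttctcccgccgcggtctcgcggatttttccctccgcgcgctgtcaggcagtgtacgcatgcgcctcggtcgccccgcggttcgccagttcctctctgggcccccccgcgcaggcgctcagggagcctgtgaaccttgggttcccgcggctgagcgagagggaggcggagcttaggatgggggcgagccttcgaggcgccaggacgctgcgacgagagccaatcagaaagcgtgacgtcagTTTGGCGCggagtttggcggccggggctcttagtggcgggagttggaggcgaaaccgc
In Mcm5 the capitals hold a pair of overlapping matches on opposite strands, TTTCGCGC and the reverse of TTTGGCGC. In Ubr7 the letters begin after the start site of the printed window, in the others before it. The printed windows of Cdc6 and Uhrf1 lie downstream of the first base of the gene (98907709 and 56303337), so their letters do too. Uhrf1 has another window, at chr17:56303087-56303386, which held 0 matches to the E2F letters. A match is a description of letters and not a measured binding site.

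Depth ranged from 8989965 to 28701855 counts per library. The ribosomal RNA gene Rn45s held between 14.8% and 22.6% of the VD counts and between 0.511% and 0.950% of the ZL counts. Jak1 mRNA was 373 ± 45.3 CPM (counts scaled to a common library size; SD, n = 6) in wt libraries, from 321 to 435, and 422 ± 160 in libraries labelled Jak1 KO, from 246 to 727. Gene levels ran most with exon length in the ZL libraries Jak1 KO 4, Jak1 KO 6 and wt 6 (Spearman rho -0.59, 0.51 and 0.43, against -0.31 to 0.28 in the other 9 libraries), so results are also given without Jak1 KO 4 or without all 3. The level of Jak1 does not check the labels, and "Jak1 KO" below means the libraries so labelled. All 12 LT-HSC markers (Procr, Mecom, Hlf, Fgd5 and others) had counts in every library and summed to between 2017 and 4278 CPM. Of the other cell types' lists, megakaryocyte markers summed to 1018 to 1376 CPM in wt and 453 to 782 CPM in Jak1 KO, and Itga2b of that list was lower, with a log2 fold change of -1.08 (adjusted p = 0.0247, edgeR). Erythroid markers summed to 280 to 479 CPM in wt and 203 to 377 CPM in Jak1 KO. Granulocyte progenitor markers gave 111 to 244 against 94.0 to 265 CPM, multipotent progenitor markers 311 to 508 against 353 to 485 CPM, and lymphocyte markers 67.2 to 148 against 42.2 to 329 CPM. Up to 3 of the 7 lymphocyte markers were at 0 in a library, as was up to 1 of 7 in the erythroid, granulocyte and multipotent lists and 0 of 6 in the megakaryocyte list. With edgeR 0 of the LT-HSC, erythroid, granulocyte, multipotent and lymphocyte markers were called, against 0.44% of all genes tested. At an unadjusted p under 0.05, 2 LT-HSC markers and 1 erythroid marker were lower in Jak1 KO. At that level 1 LT-HSC marker and 2 multipotent markers, Satb1 (log2 fold change 1.22) and Flt3 (0.45), were higher. Of all genes tested, 2.66% were lower and 2.4% higher at that level. What part the megakaryocyte difference has in the values below was not tested.

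Over the 12 libraries no replication gene passed an adjusted p of 0.05, while the members as a list lay slightly below wt. With edgeR's quasi-likelihood test, 0 of 46 were called, against 58 of the 13184 genes tested (0.44%). DESeq2 also called 0, and limma-voom with sample quality weights called 1, Ung, at a log2 fold change of -0.57 (adjusted p = 0.0194). Calls of both methods over all genes are given in the last section. The limma-voom weights were 1.61 to 3.18 in VD, but 0.165 to 0.406 in wt 4, wt 6, Jak1 KO 4 and Jak1 KO 6 of ZL. Ung was -0.58 in VD alone and -0.06 in ZL alone (edgeR), so its call rests mainly on VD. The log2 fold change of Jak1 KO over wt was below 0 for 38 of the 46, against 50.9% of all genes tested. Its median was -0.22 over the members and -0.006 over all genes. An unadjusted p under 0.05 was reached by 6 members with a lower level, Mcm2, Mcm5, Cdc6, Mcm10, Cdca7 and E2f8, and by 0 with a higher level, against 2.66% and 2.4% of all genes. These 6 are also the members whose 95% interval lay wholly below 0. Estimates ran from -0.65 (E2f8) to 0.17 (Gmnn), and the interval bounds over all 46 ran from -1.30 to 0.73. Interval widths ran from 0.52 to 1.70, and differences within a gene's own interval were not resolved by 6 libraries against 6. The smallest adjusted p was 0.767 (Mcm10). In a fit that dropped wt 6 along with Jak1 KO 4 and Jak1 KO 6, 41 members lay below 0 with a median of -0.13, and 0 were called. The count of 6 became 2 without Jak1 KO 3, 3 without wt 6 and 11 without Jak1 KO 6. Counts below 0 depend on the scaling: 32 members lay below 0 with DESeq2's size factors or with Rn45s left out, where the median of all genes moved to 0.04 and 0.05 and that of the members to -0.17 and -0.16.

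**Figure D1:**
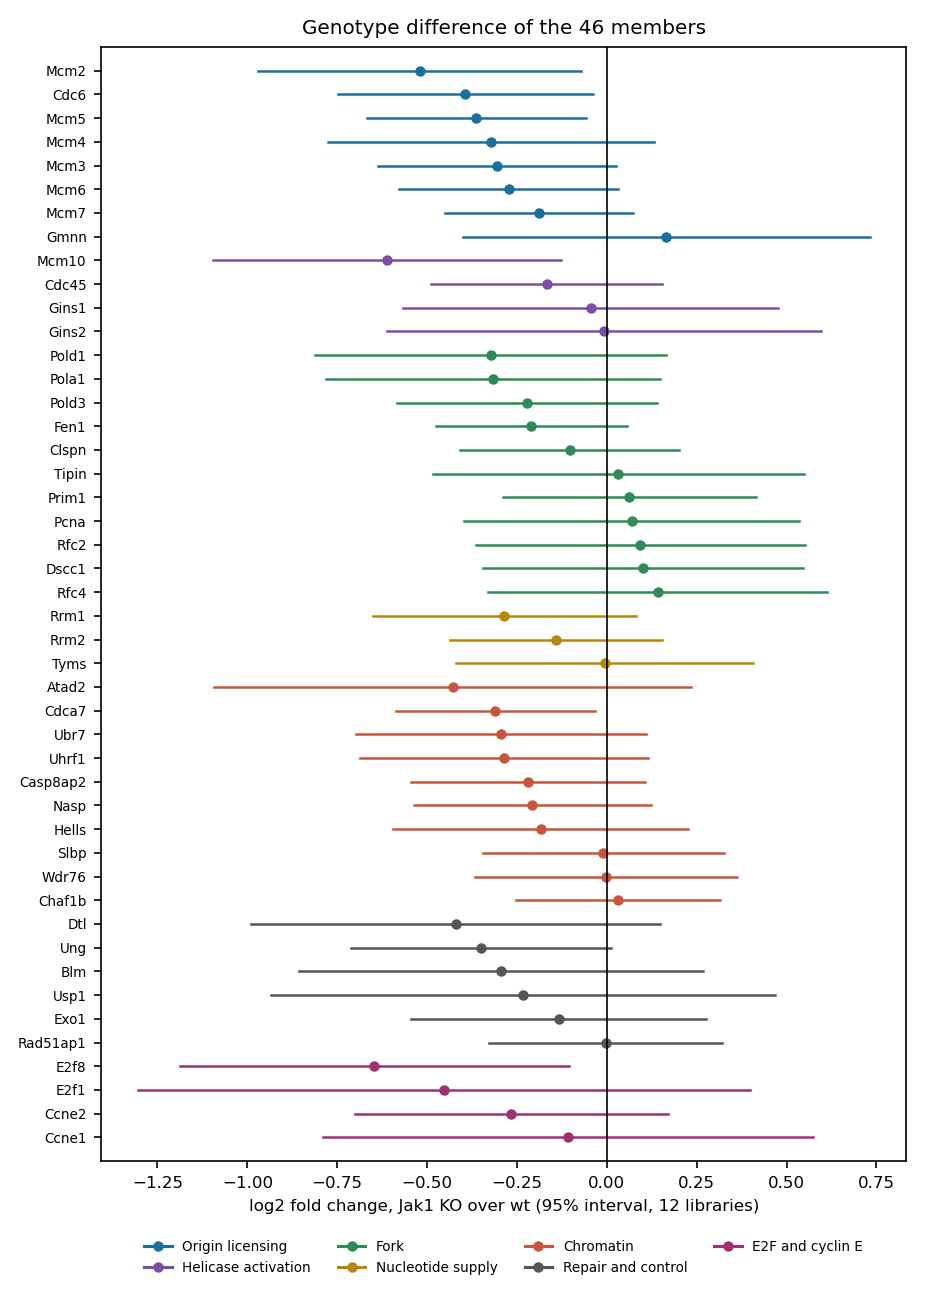
Log2 fold change (x axis, Jak1 KO over wt, edgeR fit of 12 libraries) of each of the 46 members (y axis), coloured by role; points are estimates and lines are 95% intervals. Intervals of 6 members lie wholly below 0 and none lies wholly above it.

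The origin licensing genes had 7 of 8 members below 0 and a median of -0.31 on the log2 scale. Without Jak1 KO 4 the licensing median was -0.16, and without Jak1 KO 4, Jak1 KO 6 and wt 6 it was -0.19, with 8 of 8 below 0 in both fits. Mcm2 to Mcm7 are the 6 subunits of the helicase ring, Cdc6 loads it, and Gmnn (geminin) blocks loading of a further ring in the same cycle. Mcm2 (chromosome 6, 88883474 to 88898780, mm10) had 307, 323 and 269 CPM in the VD wt libraries 1, 2 and 3, and 239, 246 and 176 CPM in the VD Jak1 KO libraries 1, 2 and 3. In the ZL libraries it had 396, 372 and 615 CPM in wt 4, 5 and 6 and 165, 342 and 408 CPM in Jak1 KO 4, 5 and 6. The VD groups did not overlap. In the ZL groups wt 6 stood highest, Jak1 KO 4 lowest, and Jak1 KO 6 lay above wt 4 and wt 5. Over both sets Mcm2 averaged 380 ± 124 CPM in wt and 263 ± 95.4 CPM in Jak1 KO, a log2 fold change of -0.52 (SE 0.21, adjusted p = 0.838, edgeR).

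Mcm5 (chromosome 8, 75109468 to 75128439) gave 324, 363 and 366 CPM in VD wt and 267, 287 and 208 CPM in VD Jak1 KO, again without overlap. Its ZL values were 328, 310 and 404 CPM in wt and 229, 316 and 324 CPM in Jak1 KO, which overlapped. The fitted difference was -0.36 (SE 0.14, adjusted p = 0.835, edgeR). Cdc6 (chromosome 11, 98907709 to 98923942) had a mean of 12.3 fragments per kilobase of exon (FPKM, CPM divided by exon length) in wt, against 101 for Mcm5. In CPM it had 45.9, 56.6 and 42.8 CPM in VD wt, 34.3, 39.9 and 33.4 CPM in VD Jak1 KO, 57.3, 57 and 92.7 CPM in ZL wt and 44.0, 58.9 and 59.1 CPM in ZL Jak1 KO. The VD groups stood apart here too, while wt 4 and wt 5 of the ZL set lay inside the Jak1 KO range, and the log2 fold change was -0.39 (SE 0.17, adjusted p = 0.877, edgeR). Mcm3, Mcm4, Mcm6 and Mcm7 had log2 fold changes of -0.31, -0.32, -0.27 and -0.19.

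Gmnn was the exception among the licensing genes. It had 36.6, 47.3 and 46.5 CPM in VD wt, 31.0, 57.7 and 27.2 CPM in VD Jak1 KO, and 69.2, 85.4 and 66.3 CPM in ZL wt. Its ZL Jak1 KO values were 164, 90.8 and 57 CPM, so Jak1 KO 4 had the highest level of the 12 libraries and Jak1 KO 6 the lowest of the ZL set. The log2 fold change was 0.17 (SE 0.26) over the 12 libraries, -0.14 in VD and 0.49 in ZL, and it turned to -0.05 without Jak1 KO 4. A higher Gmnn level in Jak1 KO thus rested on that library.

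Helicase activation needs Cdc45 and the GINS complex, which join the MCM ring, and Mcm10. The role median was -0.11 with all 4 members below 0 and values from -0.61 to -0.01. The activation median was -0.44 in VD (4 of 4 below 0) and 0.13 in ZL (2 of 4), and over both sets -0.25 without Jak1 KO 4, -0.18 without wt 4, -0.07 without Jak1 KO 1 and -0.04 without wt 2, without Jak1 KO 3 or without Jak1 KO 6. With DESeq2's size factors 2 of 4 lay below 0, as also with DESeq2, with no filter, with no set term and with Rn45s left out. Mcm10 (chromosome 2, 4990724 to 5012791) had the smallest p of the list. It showed 56.4, 74.0 and 65.6 CPM in VD wt against 40.3, 45.3 and 33.6 CPM in VD Jak1 KO. In the ZL set it showed 50.6, 41.0 and 77.2 CPM in wt against 21.0, 43.9 and 53.7 CPM in Jak1 KO. Its VD groups were well apart and its ZL groups overlapped, with means over both sets of 60.8 ± 14.0 and 39.6 ± 11.3 CPM, a log2 fold change of -0.61 (SE 0.23, adjusted p = 0.767, edgeR). Cdc45 had 44.7, 55.0 and 55.1 CPM in VD wt, 45.1, 47.4 and 36.1 CPM in VD Jak1 KO, 55.9, 70.1 and 81.5 CPM in ZL wt and 74.4, 67.1 and 56.3 CPM in ZL Jak1 KO. Groups overlapped in both sets, and its interval ran from -0.49 to 0.15. Gins1 and Gins2, a pair of GINS subunits, had log2 fold changes of -0.39 and -0.50 in VD but 0.32 and 0.50 in ZL. Without Jak1 KO 4 the ZL values were -0.17 and 0.03, so the higher ZL levels rested mostly on that library. With all 12 libraries, the difference between the sets had the smallest interaction p of all members for Gins2 (unadjusted p = 0.0575, edgeR).

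Over the 12 libraries the fork genes had no common direction: 5 of 11 lay below 0, with a median of 0.03. Without Jak1 KO 4 all 11 lay below 0 (median -0.11), and without Jak1 KO 4, Jak1 KO 6 and wt 6 together 9 did (median -0.09). In VD all 11 lay below 0 (median -0.17) and in ZL 5 did (median 0.20), while 7 did in ZL without Jak1 KO 4 (median -0.04). Over the alternatives that used both sets, the fork median was above 0 in 16 of 23, among them all other scalings and filters. It was below 0 with limma-voom, with replicate numbers as a block and with an offset for exon length. It was also below 0 without wt 4, without wt 6, without Jak1 KO 4 and without Jak1 KO 4, Jak1 KO 6 and wt 6 together. Its sign thus depends on the model and on single libraries. The medians of the other 6 roles stayed below 0 in all 23. Pcna, the sliding clamp that tethers the polymerase, had 189, 210 and 191 CPM in VD wt and 178, 162 and 136 CPM in VD Jak1 KO. In ZL it had 131, 175 and 143 CPM in wt and 304, 189 and 121 CPM in Jak1 KO. The VD groups did not overlap and were lower in Jak1 KO, while in ZL the spread ran from Jak1 KO 6, the lowest, to Jak1 KO 4, the highest. The log2 fold change was -0.27 in VD, 0.45 in ZL and 0.07 (SE 0.22) over all 12, and -0.11 without Jak1 KO 4. Fen1, the nuclease that trims Okazaki fragments, had 103, 114 and 102 CPM in VD wt, 85.8, 92.4 and 78.2 CPM in VD Jak1 KO, 173, 200 and 225 CPM in ZL wt and 173, 203 and 179 CPM in ZL Jak1 KO. Its VD groups did not overlap, and the fitted value was -0.21 (SE 0.12, adjusted p = 0.945, edgeR). Pola1, the catalytic subunit of the polymerase that extends primers, had 151, 150 and 145 CPM in VD wt and 126, 149 and 120 CPM in VD Jak1 KO. Its ZL values were 125, 101 and 212 CPM in wt and 63.8, 104 and 152 CPM in Jak1 KO, so wt 6 was highest and Jak1 KO 4 lowest. The polymerase delta genes Pold1 and Pold3 had log2 fold changes of -0.32 and -0.22, Clspn of the fork checkpoint -0.10, and the primase gene Prim1 0.06. The clamp loader genes Rfc2, Rfc4 and Dscc1 had 0.09, 0.14 and 0.10, and the fork protection gene Tipin 0.03. All 4 of these were below 0 in VD (-0.18, -0.17, -0.13 and -0.34) and above 0 in ZL (0.40, 0.48, 0.35 and 0.43). Without Jak1 KO 4 their ZL values were -0.09, 0.04, 0.09 and -0.04.

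Nucleotide supply genes make the DNA building blocks: Rrm1 and Rrm2 are the subunits of ribonucleotide reductase and Tyms makes thymidylate. All 3 lay below 0, with a median of -0.14, which was -0.09 without wt 2 or without Jak1 KO 3 (2 of 3 below 0 in both fits). Rrm1 had 308, 321 and 271 CPM in VD wt, 254, 274 and 224 CPM in VD Jak1 KO, 408, 428 and 522 CPM in ZL wt and 217, 426 and 452 CPM in ZL Jak1 KO. Values overlapped in both sets, with Jak1 KO 4 far below the other ZL libraries, and the fitted difference was -0.29 (SE 0.17). Rrm2 had 67.7, 89.8 and 84.3 CPM in VD wt, 64.1, 79.4 and 58.3 CPM in VD Jak1 KO, 121, 129 and 143 CPM in ZL wt and 119, 144 and 123 CPM in ZL Jak1 KO. Its interval, -0.44 to 0.15, held both small decreases and small increases. Tyms had 71.3, 78.0 and 78.9 CPM in VD wt, 58.9, 87.2 and 46.3 CPM in VD Jak1 KO, 99.0, 114 and 120 CPM in ZL wt and 177, 120 and 94.9 CPM in ZL Jak1 KO. Jak1 KO libraries held both its highest and its lowest value in each set, and its log2 fold change of -0.01 (SE 0.19) turned above 0 with DESeq2's size factors (0.06).

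Chromatin genes supply histones and copy DNA methylation onto the new strand. Of the 10, 9 lay below 0, with a median of -0.21, which was -0.13 without Jak1 KO 4 and -0.14 without Jak1 KO 3. Uhrf1, which recruits the maintenance methyltransferase to replicated DNA, had 198, 216 and 193 CPM in VD wt and 169, 220 and 156 CPM in VD Jak1 KO. In ZL it had 144, 126 and 208 CPM in wt and 76.0, 132 and 150 CPM in Jak1 KO. Its groups overlapped in both sets, and the log2 fold change was -0.29 (SE 0.19). Cdca7, a partner of the chromatin remodeller Hells, lies at chromosome 2, 72476187 to 72486892, and had 289, 292 and 239 CPM in VD wt against 220, 248 and 178 CPM in VD Jak1 KO. Its ZL values were 467, 493 and 550 CPM in wt and 361, 459 and 428 CPM in Jak1 KO. Cdca7 was the only member whose ZL groups did not overlap (1 of 46, against 2.34% of all genes tested), and here the VD groups overlapped through wt 3 and Jak1 KO 2. Its log2 fold change was -0.31 in VD, -0.28 in ZL and -0.31 (SE 0.13, adjusted p = 0.873, edgeR) over both. Ubr7 had 113, 111 and 116 CPM in VD wt, 91.7, 107 and 85.1 CPM in VD Jak1 KO, 117, 115 and 163 CPM in ZL wt and 59.2, 113 and 142 CPM in ZL Jak1 KO. It did not overlap in VD and did in ZL, with a log2 fold change of -0.29 (SE 0.19). The other 7 ran from -0.43 (Atad2) to 0.03 (Chaf1b, a chromatin assembly factor subunit), with Casp8ap2 at -0.22, the histone chaperone gene Nasp at -0.21, Hells at -0.18, the histone mRNA binding protein gene Slbp at -0.01 and Wdr76 at -0.003.

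The repair and control genes had 6 of 6 below 0 and a median of -0.26. Without Jak1 KO 4 it was -0.16 and without wt 6 -0.15, with 4 of 6 below 0 in both fits. Ung removes uracil from DNA, and it was the member whose level differed most between the name sets. Its VD values were 49.7, 56.0 and 51.4 CPM in wt and 33.4, 39.1 and 29.5 CPM in Jak1 KO, without overlap. Its ZL values were 4.50, 5.68 and 5.14 CPM in wt and 5.65, 4.94 and 4.14 CPM in Jak1 KO, so that the wt mean was 10.2-fold higher in VD than in ZL. The genotype difference of Ung was -0.58 in VD and -0.06 in ZL (interaction 0.56, unadjusted p = 0.0989, edgeR). Dtl, which brings a ubiquitin ligase to PCNA on DNA, had 141, 142 and 126 CPM in VD wt, 105, 108 and 97.8 CPM in VD Jak1 KO, 193, 148 and 288 CPM in ZL wt and 58.4, 159 and 244 CPM in ZL Jak1 KO. Its VD groups did not overlap, and its ZL values spanned from Jak1 KO 4 to wt 6. The fitted value was -0.42 (SE 0.26, adjusted p = 0.945, edgeR). The deubiquitinase gene Usp1, the helicase gene Blm, the exonuclease gene Exo1 and the recombination gene Rad51ap1 had -0.23, -0.29, -0.13 and -0.004.

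All 4 E2F and cyclin E genes lay below 0, and their median was -0.36. Without wt 4 that median was -0.16, with 2 of 4 below 0. E2f1 is an activator of the S-phase programme, E2f8 a repressor that is itself an E2F target, and Ccne1 and Ccne2 are the cyclins that start S phase with Cdk2. E2f8 (chromosome 7, 48866429 to 48882073) had 78.0, 90.9 and 56.9 CPM in VD wt, 63.4, 54.6 and 50.6 CPM in VD Jak1 KO, 44.4, 27.1 and 60.9 CPM in ZL wt and 14.5, 20.4 and 37.3 CPM in ZL Jak1 KO. Groups overlapped in each set, by wt 3 in VD and wt 5 in ZL, and the log2 fold change was -0.65 (SE 0.25, adjusted p = 0.83, edgeR). E2f1 had 82.3, 83.7 and 72.2 CPM in VD wt and 54.7, 69.8 and 59.6 CPM in VD Jak1 KO, which did not overlap. In ZL it had 71.9, 14.4 and 11.8 CPM in wt and 26.6, 31.8 and 9.35 CPM in Jak1 KO, with wt 4 far above the other ZL libraries. The log2 fold change of E2f1, -0.45 (SE 0.40), turned to 0.12 without wt 4, so the direction over both sets rested on that library. In VD, which does not hold wt 4, it was -0.33 (adjusted p = 0.24, edgeR), and -0.32 without Jak1 KO 3. Ccne1 had 13.7, 14.1 and 14.2 CPM in VD wt, 9.03, 18.6 and 7.21 CPM in VD Jak1 KO, 17.9, 14.8 and 6.14 CPM in ZL wt and 15.5, 18.1 and 6.77 CPM in ZL Jak1 KO. Its interval ran from -0.79 to 0.57, and Jak1 KO libraries again held both extremes of the VD set. Ccne2 had 16.5, 20.5 and 10.7 CPM in VD wt, 11.0, 16.1 and 10.9 CPM in VD Jak1 KO, 27.3, 34.2 and 39.7 CPM in ZL wt and 21.8, 32.3 and 33.7 CPM in ZL Jak1 KO. It overlapped in both sets, with a log2 fold change of -0.27 (SE 0.20).

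**Figure D2:**
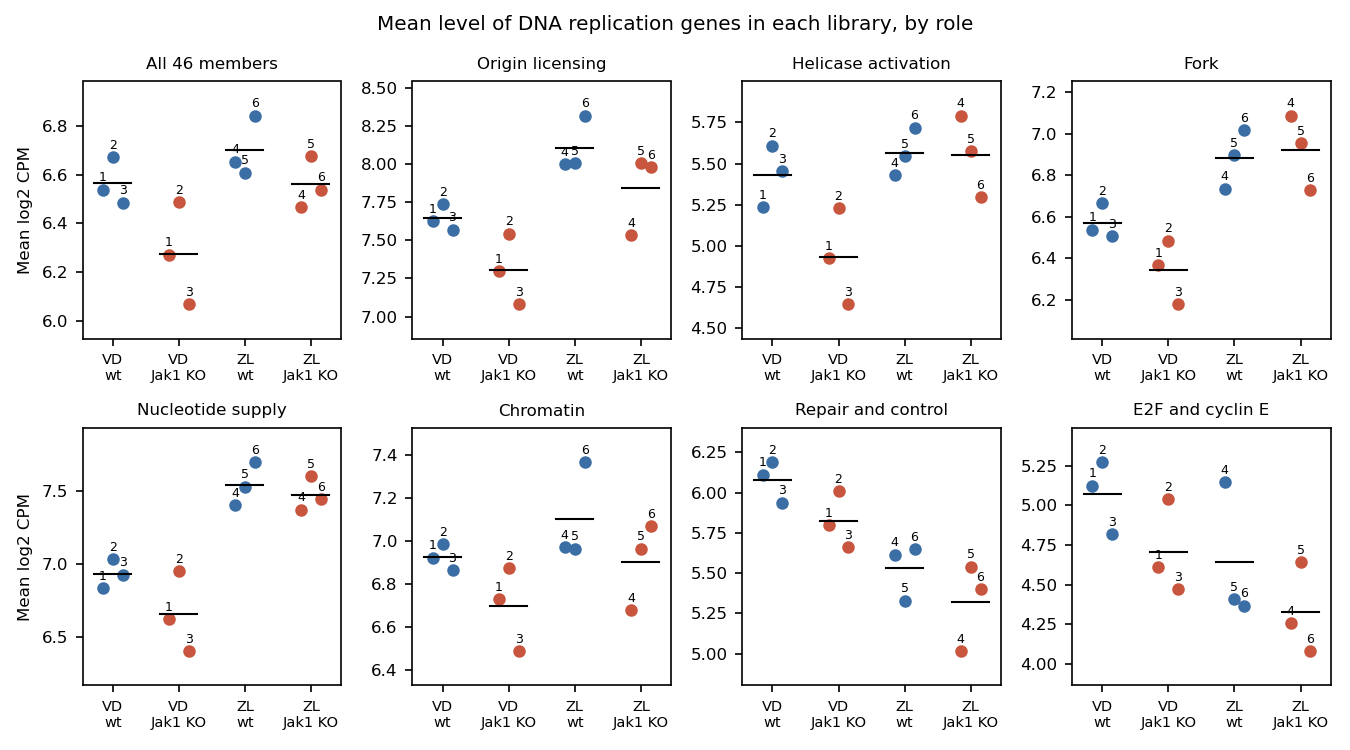
Mean log2 CPM (y axis) of all 46 members and of each role in each library, by name set and genotype (x axis); dots are libraries with their replicate number and lines are group means of 3. In the VD panels Jak1 KO 3 is the lowest library for all members, and in the ZL panels Jak1 KO 4 is among the highest for fork genes and the lowest for licensing genes.

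Per base of exon, levels are given within each set, since wt levels of some members differed between the sets. In VD wt the highest mean was that of Pcna, 130 ± 7.45 FPKM (SD, n = 3), followed by Mcm6 at 128 ± 9.20, Mcm3 at 124 ± 7.53 and Cdca7 at 113 ± 12.3 FPKM, with each step smaller than the larger of the 2 SDs. The lowest in VD wt were Ccne1 at 7.01 ± 0.143, Exo1 at 6.24 ± 0.493 and Ccne2 at 4.97 ± 1.55 FPKM. In ZL wt Cdca7 (208 ± 17.6 FPKM) and Mcm6 (204 ± 6.36 FPKM) were highest, at a distance below the SD of each, Mcm3 followed at 153 ± 22.8 FPKM, and Pcna was at 98.6 ± 14.9 FPKM. The lowest in ZL wt were Ccne1 at 6.48 ± 3.05, Clspn at 5.72 ± 1.37, Wdr76 at 2.95 ± 0.736 and Ung at 1.99 ± 0.231 FPKM, and Wdr76 and Ung stood at 10.5 ± 1.18 and 20.4 ± 1.28 FPKM in VD wt.

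Within the VD set most replication genes had a lower level in Jak1 KO. There 43 of 46 members lay below 0 (49.2% of all genes tested), with a median of -0.23, and 20 were lower at an unadjusted p under 0.05 (43.5%, against 7.15% of all genes). In 18 members all 3 Jak1 KO libraries lay below all 3 wt libraries (39.1%, against 13.2% of genes), and in 0 the reverse. With edgeR 1 member was called, Mcm10, at -0.68 (SE 0.15, adjusted p = 0.0479), against 1.15% of the 12903 genes tested in that set. These VD counts rest in part on Jak1 KO 3, which was the lowest of the 6 VD libraries for 40 of the 46 members, while wt 2 was the highest for 27. Without Jak1 KO 3, an analysis added after the data were seen, 38 members lay below 0, the median was -0.14, 9 members had an unadjusted p under 0.05 and 0 were called (Mcm10 adjusted p = 0.162, edgeR). All 9 were lower (19.6% of members). Of the 13282 genes tested in that fit, 50.6% lay below 0, 5.64% were lower at an unadjusted p under 0.05 and 0.791% were called. The members' mean log2 CPM was 6.54, 6.67 and 6.48 in VD wt libraries and 6.27, 6.49 and 6.07 in VD Jak1 KO libraries, so that Jak1 KO 2 lay just above wt 3. Marker genes of the stem cell and other lineages moved in the same set. In VD edgeR called 4 of 6 megakaryocyte markers lower (Pf4, Itga2b, Gp1bb and Vwf), and the list summed to 1096 to 1376 CPM in wt and 622 to 652 CPM in Jak1 KO. Of the 12 LT-HSC markers, Ly6a was called lower at -1.61 (adjusted p = 0.000197, edgeR) and Hlf higher at 0.40 (adjusted p = 0.0282, edgeR), and the list summed to 2243 to 2608 CPM in wt and 2541 to 2984 CPM in Jak1 KO. Of 7 erythroid markers 0 were called and 3 were lower at an unadjusted p under 0.05 (edgeR). Their part in the values of the replication genes was not tested.

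In the ZL set 31 of 46 members lay below 0 (50.3% of all genes tested), with a median of -0.15. With edgeR 0 members were called in ZL, as were 0% of the 13859 genes tested there, and 0 members were lower at an unadjusted p under 0.05, against 1.05% of all genes. The members' mean log2 CPM was 6.65, 6.61 and 6.84 in ZL wt libraries and 6.47, 6.68 and 6.54 in ZL Jak1 KO libraries, which overlapped. No member had groups that did not overlap in both sets. Over all 13184 genes this was also rare, with 127 whose Jak1 KO libraries all lay below wt in both sets. Of the 46, 30 were lower in Jak1 KO in both sets, 13 were lower in VD and higher in ZL, 1 was the reverse (Exo1) and 2 were higher in both (Chaf1b and Rad51ap1). The test of the difference between the sets called 0 of 46 members with edgeR, as it did 0% of the 13184 genes, and 0 members had an unadjusted interaction p under 0.05. A difference between the sets was therefore not shown for any member. Across the members, the VD and ZL fold changes, which share no library, had a Spearman rho of 0.18, and 0.32 without Jak1 KO 4.

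**Figure D3:**
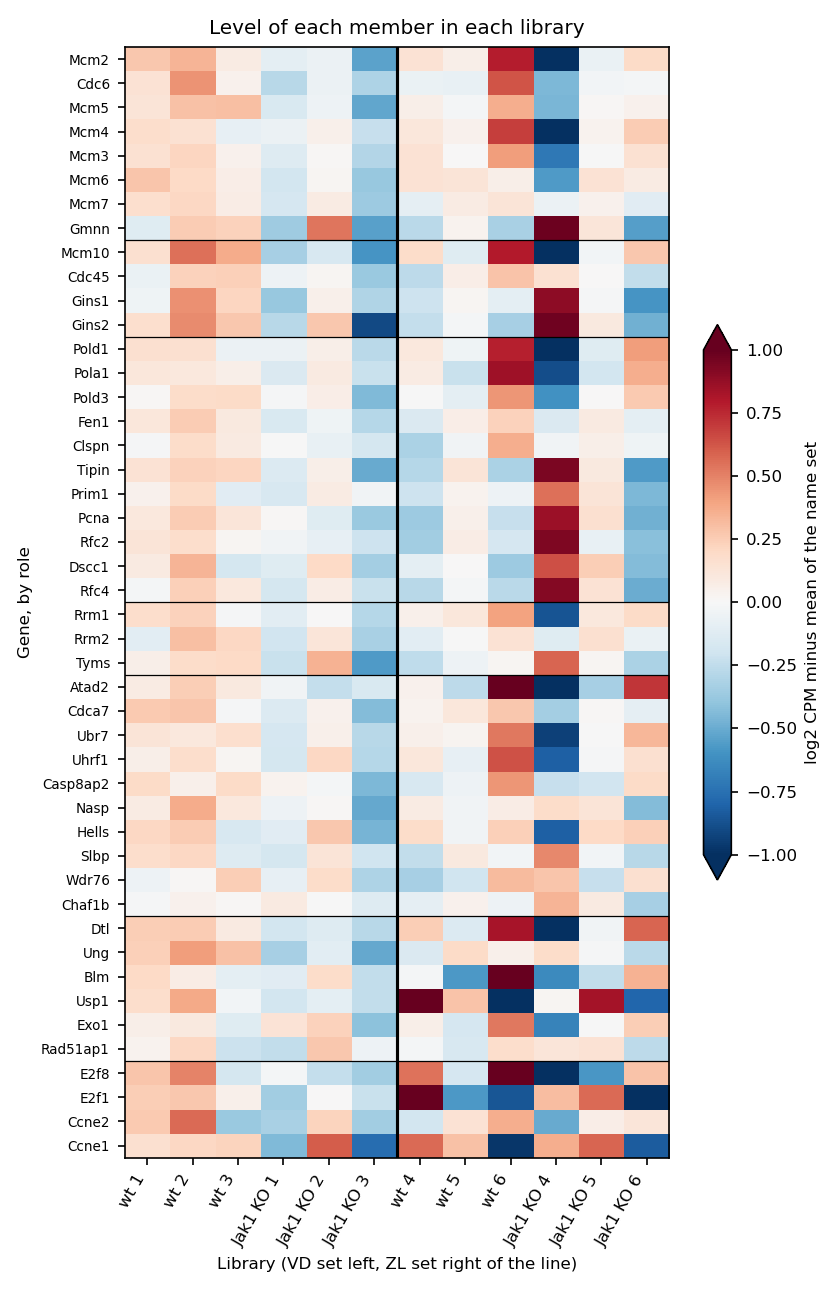
Log2 CPM of each member (rows, by role) in each library (columns), minus the mean of the 6 libraries of its name set; values past 1 or -1 are drawn in the end colours. Jak1 KO 3 is the lowest VD library for 40 members, while the ZL column of Jak1 KO 4 is split, highest for 13 members and lowest for 24.

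The split in the ZL set moved with exon length. Jak1 KO 4 was the highest ZL library for 13 members, with a median exon length of 1847 nt, and the lowest for 24, with a median of 3773.5 nt. Gmnn, Gins1, Pcna, Rfc4 and Tipin were among the former, and Mcm2, Mcm10, Pola1, Dtl and E2f8 among the latter. Some members went against this order. The former also held Gins2 (3900 nt) and Rfc2 (4995 nt), and the latter Rrm2 (2193 nt), Fen1 (2422 nt) and Cdca7 (2424 nt). Across the 46 members, the ZL log2 fold change had a Spearman rho of -0.54 with exon length, against -0.49 over 12551 genes with a length and a value in both sets. In VD rho was 0.003 over members and 0.15 over those genes. Over the 12 libraries it was -0.46 and -0.31. Without Jak1 KO 4 the ZL rho of the members was -0.18. The level of a gene in Jak1 KO 4, relative to the ZL mean, had a rho of -0.59 with exon length over all tested genes, the most negative of the 12, while wt 6 had 0.43 and Jak1 KO 6 0.51. These correlations run across genes of the same libraries, which are not independent replicates.

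**Figure D4:**
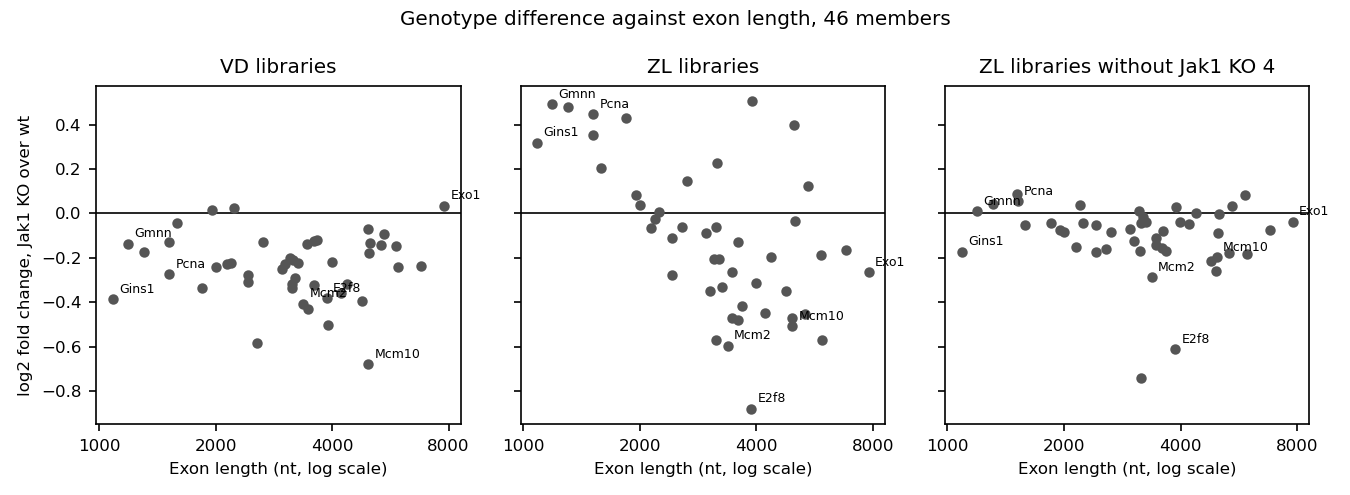
Log2 fold change of each of the 46 members (y axis, Jak1 KO over wt) against its exon length (x axis, nt, log scale) in the VD libraries, the ZL libraries and the ZL libraries without Jak1 KO 4; each dot is a gene. Many of the shortest members lie above 0 in the ZL panel (rho -0.54), with less slope once Jak1 KO 4 is left out (-0.18).

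Divided at the median exon length of 3230.5 nt, the 23 longer members had 20 below 0 in ZL (median -0.33) and the 23 shorter had 11 (median 0.006). In VD the same groups had 22 and 21 below 0, with medians of -0.22 and -0.23. Leaving Jak1 KO 4 out of ZL gave 36 of 46 below 0 (50.1% of all genes tested), with a median of -0.07, and 9 of the 15 members that had been above 0 turned below it. With edgeR 0 members were called in that fit, as were 0% of all genes, and 0 were lower at an unadjusted p under 0.05, against 1.44% of all genes. A smoothed curve of each library's levels, relative to its set mean, on exon length was also entered as an offset. With it the 12 libraries gave 40 of 46 below 0, a median of -0.17 and 0 called (7 with an unadjusted p under 0.05, edgeR). The contribution of length to each single gene was not tested.

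All 15 members with E2F letters in the promoter window lay below 0 in both VD and ZL, with medians of -0.23 and -0.28. The 20 members with a window and no such letters had 18 below 0 in VD (median -0.23) and 11 in ZL (median -0.04). The 11 members with no window in the table had 10 and 5 below 0. Outside the list, 57.1% of 436 tested genes with the letters lay below 0 in VD and 58.0% in ZL, against 49.3% and 51.8% of 8946 genes without them. Exon length moved with this division: its median was 3667 nt in members with the letters and 2605.5 nt in those without. With Jak1 KO 4 left out of ZL, 12 of the 15 and 16 of the 20 lay below 0, and the medians were -0.07 and -0.08. This division was made after the fold changes were known, and its difference was not tested.

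Of 67 further replication genes, chosen by function, 0 were called with edgeR, DESeq2 or limma-voom, against 0.44% of all genes tested with edgeR. Of the 67, 45 lay below 0 (67.2%, against 50.9% of all genes) and the median was -0.15. An unadjusted p under 0.05 (edgeR) was reached by 2, both lower. That is 2.99% of the 67, near the 2.66% of all genes that were lower at that level. Gins3, a GINS subunit, averaged 32.0 ± 7.42 CPM in wt and 25.9 ± 9.54 CPM in Jak1 KO, and Lig1, the ligase that joins Okazaki fragments, 225 ± 43.1 and 183 ± 37.3 CPM, with log2 fold changes of -0.36 and -0.29 (adjusted p = 0.877 and 0.945, edgeR). Rb1, the E2F-binding retinoblastoma gene, and Rpa1, a subunit of the protein that coats single-stranded DNA, had -0.66 and -0.25. By role, the medians were -0.11 for further licensing genes (6 of 8 below 0), -0.20 for activation (9 of 10), -0.10 for fork (13 of 22), 0.08 for nucleotide supply (3 of 9), -0.19 for chromatin (5 of 6) and -0.20 for E2F partners and Ccna2 (9 of 12).

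Of 8 proliferation markers, 0 were called with edgeR (0.44% of all genes tested) and 6 lay below 0 (50.9%), with a median of -0.29. The 2 with an unadjusted p under 0.05 were lower, against 2.66% of all genes. In VD 8 of 8 lay below 0 and 3 were lower at that level, against 49.2% and 7.15% of genes. In ZL 6 of 8 lay below 0 and 0 were lower at that level, against 50.3% and 1.05%. Over the 12 libraries Cdk1 and Birc5 lay above 0, and both were highest in Jak1 KO 4 (286 and 168 CPM). The summed level of the 8 markers was 1387 to 1586 CPM in VD wt and 1074 to 1412 CPM in VD Jak1 KO. In ZL it was 909 to 1190 CPM in wt and 921 to 994 CPM in Jak1 KO. Mki67, a marker of cycling cells, averaged 655 ± 68.8 CPM in VD wt and 576 ± 88.3 CPM in VD Jak1 KO. In ZL it averaged 149 ± 46.5 CPM in wt and 124 ± 41.4 CPM in Jak1 KO. Over both sets it averaged 402 ± 282 CPM in wt and 350 ± 255 CPM in Jak1 KO, with SDs that include the set difference (log2 fold change -0.22, adjusted p = 0.945, edgeR). The topoisomerase gene Top2a averaged 419 ± 97.5 and 327 ± 105 CPM (-0.36, adjusted p = 0.945, edgeR).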

How the data were processed

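The authors deposited a table of raw counts per gene for 12 poly-A RNA-seq libraries. Per the submitters' processing notes these counts were made with STAR 2.3.0e, featureCounts and Subread on mm10; annotation and strand setting: not given in the sources used here, so reads of overlapping or antisense genes cannot be told apart. Columns were matched to samples by the sample descriptions and groups by the titles. In R 4.3.3, edgeR 4.0.16 (filterByExpr on genotype, TMM, a term for name set, genotype tested by glmQLFTest, Benjamini-Hochberg over all genes tested, threshold 0.05) gave log2 fold changes, whose SE is the change over the square root of F, with 95% intervals. Values after ± are SDs, and log2 CPM had a prior count of 2. VD and ZL sets were also fitted alone, and their difference as an interaction. Alternatives used DESeq2 1.42.0, limma 3.58.1, other scalings and filters, and left-out libraries. Exon lengths came from GENCODE and positions from RefSeq, both of GRCm38 (mm10), for all 46 members. Chi-square per degree of freedom was at least 13.8 for any 2 libraries of the same genotype and name set, so no such pair agreed within sampling noise. Pairs across genotypes or name sets were not compared in this way. Depth was 8989965 to 28701855 counts, and intervals cover no loss of molecules before sequencing.

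The members and lists were chosen with earlier results of these data known. Values in every library are given for 13 fixed genes and the 2 members of each role with the smallest p, 21 in all; 4 further replication genes with the smallest p, Mki67 and Top2a were named. Other members are named with their fold changes so that all 46 are accounted for, and genes singled out by library or set were chosen after their values were seen. E2F letters were searched in RefSeq promoter windows by symbol. Members without a window in that table were Mcm4, Ccne2, Usp1, Gins2, Gmnn, Gins1, Rfc2, Exo1, Atad2, Tipin and Dscc1. The fitting scripts were tested on simulated data.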

Additional observations from a re-analysis of the deposited data

Results flagged for a closer look

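In 5 of 44 groups of 6 libraries, which hold 21 members and the members' mean log2 CPM in each genotype, 1 library stood far from the others by Dixon's test at the 95% level. Dixon's test flags about 5% of groups of 6 independent values from a single normal population. These groups each hold both name sets and share the same 12 libraries, so 5 of 44 cannot be set against that 5%. Mcm2 had 615 CPM in wt 6, with the nearest wt library at 396 CPM and the farthest at 269 CPM. Cdc6 had 92.7 CPM in wt 6, against 42.8 to 57.3 CPM in the other 5 wt libraries. Ubr7 had 163 CPM in wt 6, against 111 to 117 CPM in the others. Ccne1 was lowest in wt 6, at 6.14 CPM, against 13.7 to 17.9 CPM. Pcna had 304 CPM in Jak1 KO 4, with the other Jak1 KO libraries between 121 and 189 CPM. Of these 5, 4 were in wt 6, and limma-voom gave wt 6 and Jak1 KO 4 the lowest quality weights of the 12 libraries (0.215 and 0.165, against 0.359 to 3.18 in the others).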

How the results depend on the processing

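Over all 27 alternatives the members' median stayed below 0, from -0.25 to -0.074, and the called count stayed at 0 of 46 except for 1 in VD alone (Mcm10) and 1 with limma-voom (Ung). Among the 21 genes given by library, 533 of their values under an alternative kept the direction and the side of the threshold, 32 turned direction and 2 newly passed it. The cause of the changes below was not tested. Members with an unadjusted p under 0.05 numbered 6 as reported, 3 without a filter on low counts, 14 with limma-voom, 1 with no set term, 20 in VD alone, 9 there without Jak1 KO 3, and 0 in ZL alone, with or without Jak1 KO 4. Without Jak1 KO 4 the ZL median was -0.074. Leaving out each library in turn gave 2 (without Jak1 KO 3) to 11 (without Jak1 KO 6), 3 without wt 6, a member median from -0.25 to -0.15, 31 to 44 members below 0 and 0 called. For the other replication genes, where 2 had an unadjusted p under 0.05, the count was 0 with DESeq2's size factors, upper quartile factors, DESeq2, no set term, Rn45s left out and ZL alone, with or without Jak1 KO 4. It was 1 without a filter or without Jak1 KO 4, Jak1 KO 6 and wt 6 together, 9 with limma-voom, 15 in VD alone, 5 there without Jak1 KO 3, and 0 to 7 with each library left out.

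Over all genes, 57 were lower and 1 higher. The calls were 97 and 22 with DESeq2, 174 and 46 with limma-voom, 14 and 0 with no set term, 98 and 51 in VD alone, 87 and 18 there without Jak1 KO 3, 0 and 0 in ZL alone with or without Jak1 KO 4, 90 and 5 with the exon length offset, and 88 and 8 without Jak1 KO 4, Jak1 KO 6 and wt 6. Without a filter 3 were higher. Leaving out each library gave 38 to 75 lower and 0 to 2 higher.

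Titles share replicate numbers, and same-numbered libraries of the 2 genotypes had correlations of their deviations of 0.0429, 0.190, 0.109, 0.195, 0.0587 and 0.668; 3 of 6 numbers matched best with their own. The numbers were not taken as pairs. With the replicate block, 70 genes were lower and 2 higher over the whole table, 11 members and 5 other replication genes had an unadjusted p under 0.05, 39 members lay below 0 and 0 were called.

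These log2 fold changes turned direction. With limma-voom Gmnn was -0.12 and Pcna -0.15. In VD alone Gmnn was -0.14 and Pcna -0.27, and without Jak1 KO 3 Pcna was -0.18 and Ccne1 0.0086. In ZL alone Tyms was 0.23 and Ccne1 0.0374, and without Jak1 KO 4 Rrm2 was 0.0393. With the exon length offset Gmnn was -0.0095, Pcna -0.073 and Tyms 0.077. Without Jak1 KO 4, Jak1 KO 6 and wt 6 Gmnn was -0.0013 and Pcna -0.077. Tyms was 0.0563 with DESeq2's size factors, 0.0392 with upper quartile factors, 0.0473 without a filter, 0.0550 with DESeq2, 0.0559 with no set term and 0.0616 with Rn45s left out. Leaving out each library gave -0.0514 to 0.29 for Gmnn, -0.11 to 0.16 for Pcna, -0.12 to 0.10 for Tyms, -0.62 to 0.12 for E2f1 and -0.30 to 0.0241 for Ccne1.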
